A study of Mus musculus with 8 samples.

Results

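The genes that encode the constitutive proteasome were followed in hematopoietic stem cells of elektra homozygous mice (Slfn2 elektra/elektra) and of their wildtype littermates (Slfn2 wt/wt). They were chosen by name, as every row of the deposited workbook with a single symbol that begins with Psma, Psmb, Psmc or Psmd and a digit, leaving out the immunoproteasome genes Psmb8, Psmb9 and Psmb10 and pseudogenes. This gave 36 genes of the 30802 symbols listed, 15 named Psma or Psmb (core) and 21 named Psmc or Psmd (regulatory particle), each with 1 feature on the array. Of the 36, 30 encode constitutive subunits, 13 of the core and 17 of the regulatory particle. The other 6 match by name but are not constitutive subunits. Psma8 and Psmb11 belong to proteasome forms of the testis and the thymus, Psmd5, Psmd9 and Psmd10 encode chaperones that help to assemble the base of the regulatory particle, and Psmc3ip encodes a recombination protein that was named for binding Psmc3. The alpha ring gene Psma5 was not analysed here.

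The proteasome is the protease that degrades proteins tagged with ubiquitin. Its core is a barrel in which rings of alpha subunits, encoded by Psma genes, guard the entry and rings of beta subunits, encoded by Psmb genes, hold the cutting sites. The regulatory particle caps the barrel. Its base unfolds substrates with a ring of ATPases, encoded by Psmc genes, and its lid removes ubiquitin. In stem cells of the blood, low protein synthesis and intact protein degradation are both known to matter for self-renewal.

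Elektra is a loss-of-function point mutation of Slfn2, carried on a C57Bl/6 background by mice that were given no treatment, and their ages were not given in the sources used here. The cells came from bone marrow and were sorted without lineage markers, for Sca-1, c-Kit, CD150 and high CD9, and against CD48. Each genotype had 4 arrays. The labels describe each as a pool from 2 mice, while the design text counts 4 mice for a genotype in all. Slfn2 function is lost in the whole animal, so effects within the stem cell and effects of its surroundings cannot be told apart. In these bulk samples, a difference in RNA per cell and a difference in the mix of sorted cells cannot be told apart either. All values are log2 signals from Affymetrix whole-transcript arrays, and a difference is elektra minus wildtype.

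The sort markers were present on all arrays, Kit between 11.81 and 12.07, Ly6a (Sca-1) between 11.87 and 12.21 and Slamf1 (CD150) between 9.11 and 10.35, while Cd48 lay between 5.67 and 6.36, around the level cutoff of 6.17 used for testing. Slfn2 itself read 8.17, 7.90, 7.79 and 8.08 in elektra replicates 1 to 4 and 7.48, 7.22, 7.53 and 8.41 in wildtype replicates 1 to 4, so the transcript does not check the genotype labels. Xist was low on replicate 3 of both genotypes only. Elektra replicate 4 had the highest mean over 8 granulocyte markers, 7.42 against 6.19 to 6.69 on the other arrays. It was the highest array for Ngp at 8.78, S100a8 at 8.24, S100a9 at 7.71 and Ltf at 7.06. Elane, Mpo and Ctsg were instead highest on wildtype replicate 1, at 8.45, 6.96 and 7.29. Prtn3 was lowest on elektra replicate 4, at 7.68. The means of erythroid and of macrophage markers were also highest on elektra replicate 4. Medians of the arrays spanned 6.11 to 6.26, and the interquartile range of their signals was 2.49 to 2.67 in elektra and 2.41 to 2.64 in wildtype. Nothing in the labels pairs a sample with one of the other genotype.

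Proteasome genes lay slightly higher in elektra stem cells, by less than the size that single genes would need to pass a test across all genes. Of the 35 genes above the level cutoff, 29 had a higher mean in elektra (82.9%, where 53.1% of the 15710 genes tested did), and their median difference was 0.15, against 0.01 over all genes tested. At an unadjusted p of 0.05 in limma, a linear model fitted across all genes, 13 of the 35 were higher (37.1%, against 7.02% of all genes) and 0 were lower (against 3.95%). Adjusted over all genes tested by Benjamini-Hochberg, 0 proteasome genes passed 0.05 (against 0.0382%, or 6 genes, overall), and the adjusted p of the 13 lay between 0.155 and 0.438. They were 1.17 to 1.36 times higher. The genotypes did not overlap on any array for 10 genes, all higher in elektra (28.6%, against 3.90% of all genes), and for 0 genes lower (against 2.37%). Psmb11, the gene below the cutoff, read between 5.05 and 5.76.

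**Figure D1:**
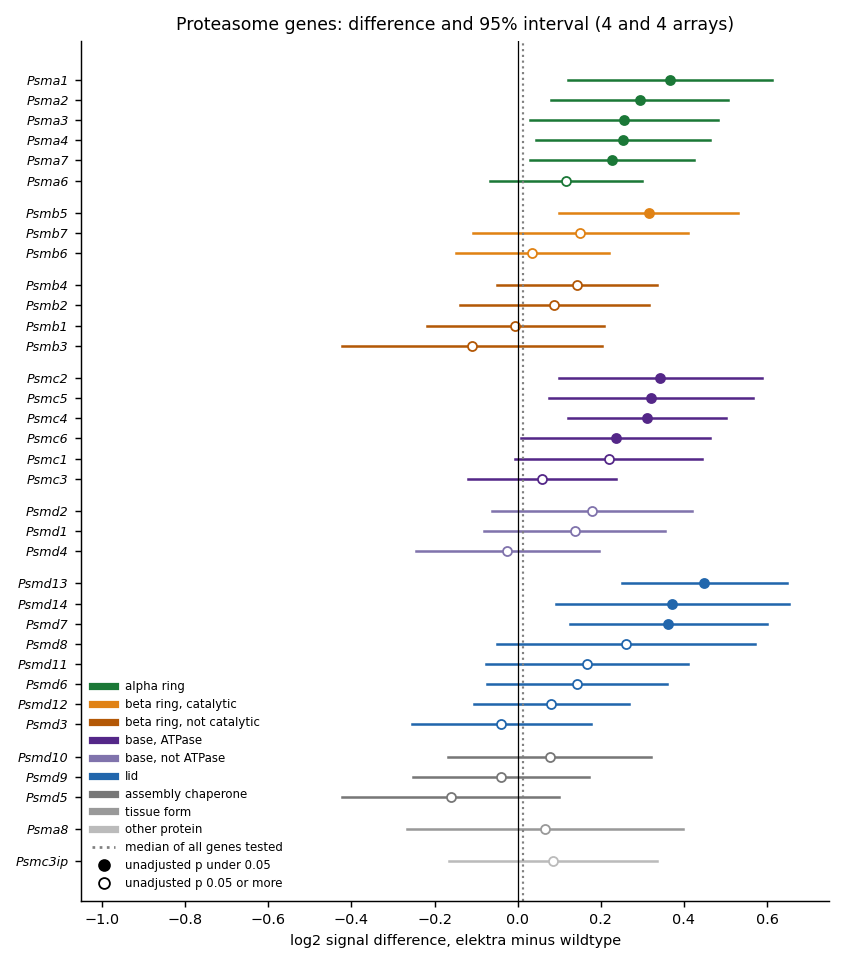
Difference in log2 signal, elektra minus wildtype, for the 35 proteasome genes tested, with 95% intervals from limma (4 and 4 arrays). Filled points mark an unadjusted p under 0.05, and they lie in the alpha ring, the ATPase ring, the lid and Psmb5, between 0.23 and 0.45.

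Array spread, signal level, markers of dividing cells and some markers of megakaryocytes leaned the same way. Among the 7946 genes in the upper quartile of signal, 10.5% were higher at an unadjusted p of 0.05 and 63.3% had a higher mean, so abundant transcripts in general leaned to elektra. With that filter 26 of 30 proteasome genes had a higher mean and 13 were higher at an unadjusted p of 0.05. Of the 13 genes of the reported fit, 12 were among them. With the interquartile range of each array as a covariate 7 of 35 remained (20.0%, against 4.52% of all genes), namely Psma1, Psma2, Psmb5, Psmc2, Psmc4, Psmd7 and Psmd13. After quantile normalization 9 of 35 did (against 5.40%). The 10 cell cycle markers also lay higher, 10 of 10 by their means (against 53.1% of all genes tested). At an unadjusted p of 0.05, 6 were higher (against 7.02%), among them Mki67 by 0.52. The genotypes overlapped for all 10. Their mean level ranged from 8.48 to 8.85 in elektra and from 8.14 to 8.58 in wildtype. Of 4 megakaryocyte markers tested 4 had a higher mean, Pf4 by 0.61, Itga2b by 0.39, Vwf by 0.11 and Gp9 by 0.01. Of these, 2 were higher at an unadjusted p of 0.05 (against 7.02% of all genes tested). Gp1ba, which was below the level cutoff, differed by -0.10. The mean level over all 5 genes was 8.43 to 8.58 in elektra and 8.22 to 8.37 in wildtype. The part of dividing cells and of megakaryocyte transcripts in the proteasome values was not tested.

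**Figure D2:**
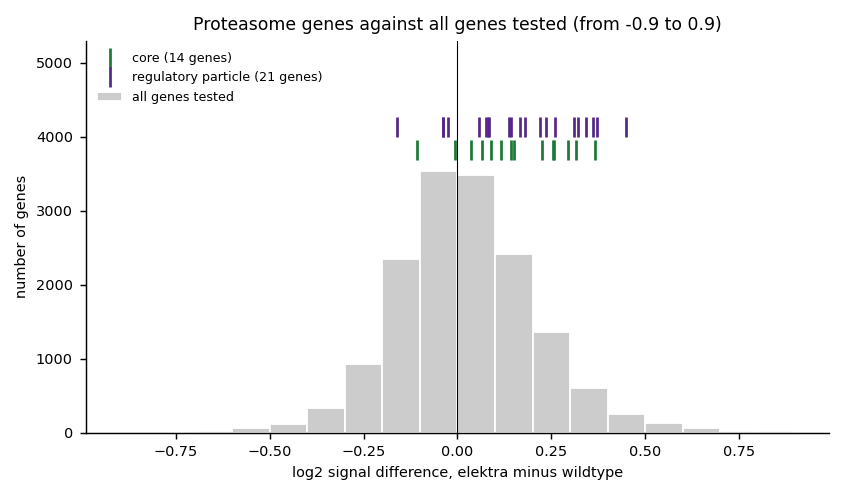
Number of genes by their difference in log2 signal, elektra minus wildtype, in steps of 0.1 between -0.9 and 0.9, for all genes tested (grey bars), with a tick for each of 14 core and 21 regulatory particle genes. The ticks of both lie mostly right of 0, at medians of 0.15 and 0.17.

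The median difference was 0.15 over 14 core genes, 12 of them higher, and 0.17 over 21 regulatory particle genes, 17 of them higher. With array spread as a covariate the medians were 0.18 for the core and 0.080 for the regulatory particle. At an unadjusted p of 0.05, 6 core and 7 regulatory particle genes were higher. Each gene was then set relative to its own mean of the 8 arrays. The core mean was 0.14, 0.10, 0.11 and -0.03 on elektra replicates 1 to 4 and -0.12, -0.08, -0.03 and -0.07 on wildtype replicates 1 to 4. The regulatory particle mean was 0.13, 0.12, 0.02 and 0.07 in elektra and -0.03, -0.17, -0.09 and -0.04 in wildtype. The genotypes did not overlap for the regulatory particle, while for the core elektra replicate 4 came down to the level of wildtype replicate 3. Core minus regulatory particle ranged from -0.10 to 0.09 in elektra and from -0.09 to 0.09 in wildtype, and the genotypes differed in it by -0.01, less than the spread between arrays (SD 0.08 in elektra and 0.09 in wildtype, n = 4 each).

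**Figure D3:**
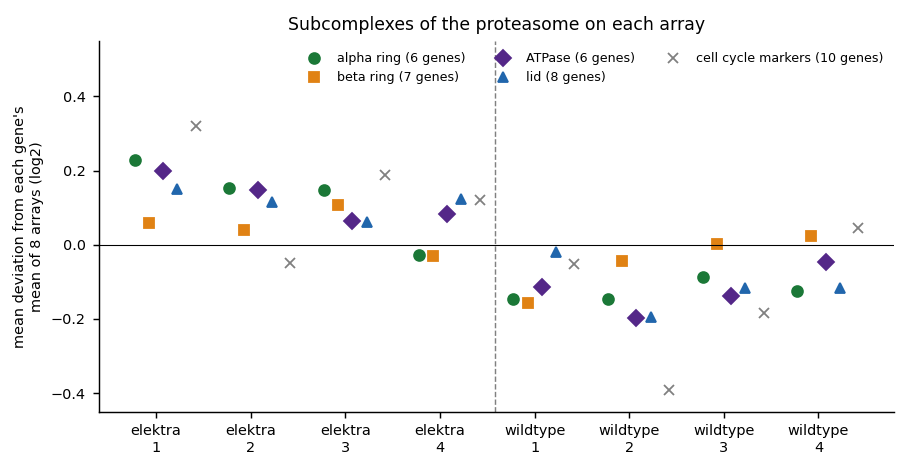
Mean deviation of each subcomplex from its genes' own means of 8 arrays (log2), on each array, for the alpha ring, the beta ring, the ATPases and the lid, with 10 cell cycle markers as crosses. Alpha ring, ATPases and lid sit below 0 on all wildtype arrays, and the beta ring differs least between genotypes.

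Within the barrel, the median difference was larger for the alpha ring than for the beta ring, although the rings were not tested against each other. The means of all 6 alpha ring genes were higher in elektra, their median difference was 0.25, and 5 were higher at an unadjusted p of 0.05. Over the 7 beta ring genes the median was 0.09, and 1 of them, Psmb5, was higher at that p. Relative to the genes' own means, the alpha ring ranged from -0.03 to 0.23 in elektra and from -0.15 to -0.09 in wildtype. The beta ring ranged from -0.03 to 0.11 and from -0.16 to 0.02, so its genotypes overlapped.

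Psma1, an alpha subunit, read 10.78, 10.72, 10.81 and 10.46 in elektra and 10.47, 10.34, 10.36 and 10.13 in wildtype. Elektra replicate 4 lay just below wildtype replicate 1, and the other arrays were separate. The difference was 0.37 with a standard error of 0.11 (limma adjusted p = 0.321), the largest in the alpha ring. Psma2, which like Psma4 and Psma7 encodes a subunit that contributes to the gate, read 9.38, 9.36, 9.34 and 9.08 in elektra and 8.93, 8.96, 9.04 and 9.06 in wildtype, without overlap, and differed by 0.29 with a standard error of 0.10 (limma adjusted p = 0.350). Here too elektra replicate 4 was the low elektra array.

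Psma3, whose product is known to bind partner proteins directly, read 11.38, 11.33, 11.21 and 11.03 in elektra and 10.93, 10.91, 10.99 and 11.09 in wildtype, a difference of 0.26 with overlap at elektra replicate 4. Psma4, which encodes the main plug of the gate, read 9.54, 9.33, 9.40 and 9.24 in elektra and 9.12, 9.05, 9.22 and 9.09 in wildtype, a difference of 0.25 without overlap. Psma7 read 11.29, 11.21, 11.16 and 11.03 in elektra and 10.90, 10.92, 10.99 and 10.97 in wildtype, a difference of 0.23 without overlap. Adjusted p in limma was 0.402, 0.380 and 0.402 for these 3 genes. Psma6, the alpha subunit of smallest difference, was at 11.02 ± 0.02 in elektra and 10.90 ± 0.07 in wildtype (SD, n = 4 each), a difference of 0.12 (95% interval -0.07 to 0.30), and its genotypes did not overlap either.

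The beta ring holds the cutting sites, and 1 of its 3 catalytic genes was higher at an unadjusted p of 0.05. Psmb5, which encodes the subunit with chymotrypsin-like activity that proteasome inhibitor drugs bind, read 11.38, 11.40, 11.29 and 11.15 in elektra and 10.93, 10.90, 10.98 and 11.15 in wildtype. The difference was 0.32 with a standard error of 0.10 (limma adjusted p = 0.330), and the lowest elektra array lay barely above the highest wildtype array. Psmb6, the caspase-like subunit, read 9.56, 9.63, 9.47 and 9.54 in elektra and 9.56, 9.53, 9.51 and 9.46 in wildtype. Its arrays were mixed and it differed by 0.04, with a 95% interval of -0.15 to 0.22. Psmb7, the trypsin-like subunit, read 9.91, 9.59, 9.83 and 9.69 in elektra and 9.39, 9.57, 9.62 and 9.84 in wildtype, a difference of 0.15 (95% interval -0.11 to 0.41) with overlap.

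Among the beta subunits without a cutting site, Psmb4 read 10.66, 10.64, 10.67 and 10.46 in elektra and 10.45, 10.41, 10.48 and 10.52 in wildtype, a difference of 0.14 (95% interval -0.05 to 0.34). Only elektra replicate 4 lay within the wildtype arrays. Psmb2 differed by 0.09, Psmb1 by -0.01 and Psmb3 by -0.11, and their genotypes overlapped. Psmb3 was higher than every elektra array on 3 wildtype arrays and lowest of all on wildtype replicate 1, at 6.68. Without that array it was lower in elektra by -0.26 (limma unadjusted p = 0.0211, adjusted p = 0.310).

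In the base of the regulatory particle, the means of all 6 ATPase genes were higher in elektra, their median difference was 0.27, and 4 were higher at an unadjusted p of 0.05. Psmc4 read 9.70, 9.70, 9.70 and 9.67 in elektra and 9.49, 9.26, 9.42 and 9.35 in wildtype. The elektra arrays lay close together and apart from wildtype, and the difference was 0.31 with a standard error of 0.09 (limma adjusted p = 0.299). Psmc5 read 10.02, 9.82, 9.68 and 9.56 in elektra and 9.51, 9.36, 9.43 and 9.50 in wildtype, a difference of 0.32 with a standard error of 0.11 (limma adjusted p = 0.359). Its elektra arrays spread widely, yet all lay above wildtype.

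Psmc2 read 8.82, 8.72, 8.82 and 8.81 in elektra and 8.41, 8.23, 8.43 and 8.72 in wildtype, a difference of 0.34 with a standard error of 0.11 (limma adjusted p = 0.347). Wildtype replicate 4 reached the lowest elektra array, and the other 3 wildtype arrays were lower. Psmc6 read 9.79, 9.48, 9.42 and 9.67 in elektra and 9.28, 9.36, 9.41 and 9.36 in wildtype, a difference of 0.24 (limma adjusted p = 0.438). It lay nearest to the unadjusted threshold from inside, at a limma p of 0.0434. Psmc1, the nearest from outside, was at 9.74 ± 0.13 against 9.52 ± 0.12 (SD, n = 4 each). Its limma p was 0.0557. Psmc3 differed by 0.06 (95% interval -0.12 to 0.24). The base subunits without ATPase activity were Psmd2 at 0.18 and Psmd1 at 0.14, which encode the large scaffolds of the base, and Psmd4 at -0.02, which encodes a ubiquitin receptor, and 0 of these 3 were called at an unadjusted p of 0.05.

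The lid held the largest difference among the 35 genes. In the lid 7 of 8 genes had a higher mean in elektra and 3 were higher at an unadjusted p of 0.05, with a median of 0.21. Psmd13, a structural subunit of the lid, read 7.60, 7.72, 7.64 and 7.74 in elektra and 7.36, 7.16, 7.14 and 7.25 in wildtype. All elektra arrays lay clear of wildtype, at 7.68 ± 0.07 against 7.23 ± 0.10 (SD, n = 4 each), a 1.36-fold difference, or 0.45 with a standard error of 0.09 (limma unadjusted p = 0.000457, adjusted p = 0.155). Psmd14 encodes the metalloprotease that cuts ubiquitin chains from substrates. It read 9.19, 8.85, 8.65 and 8.87 in elektra and 8.51, 8.36, 8.70 and 8.50 in wildtype, a difference of 0.37 with a standard error of 0.13 (limma adjusted p = 0.359), and elektra replicate 3 lay below wildtype replicate 3.

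Psmd7, the partner with which Psmd14 forms its active pair, read 10.34, 10.18, 10.25 and 10.11 in elektra and 9.86, 9.75, 9.74 and 10.10 in wildtype, a difference of 0.36 with a standard error of 0.11 (limma adjusted p = 0.311). The genotypes did not overlap, by a narrow margin at elektra replicate 4 and wildtype replicate 4. The lid genes Psmd8, at 0.26, Psmd11, at 0.17, Psmd6, at 0.14, and Psmd12, at 0.08, were not called at an unadjusted p of 0.05. Psmd3 went the other way, at -0.04 (95% interval -0.25 to 0.18).

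**Figure D4:**
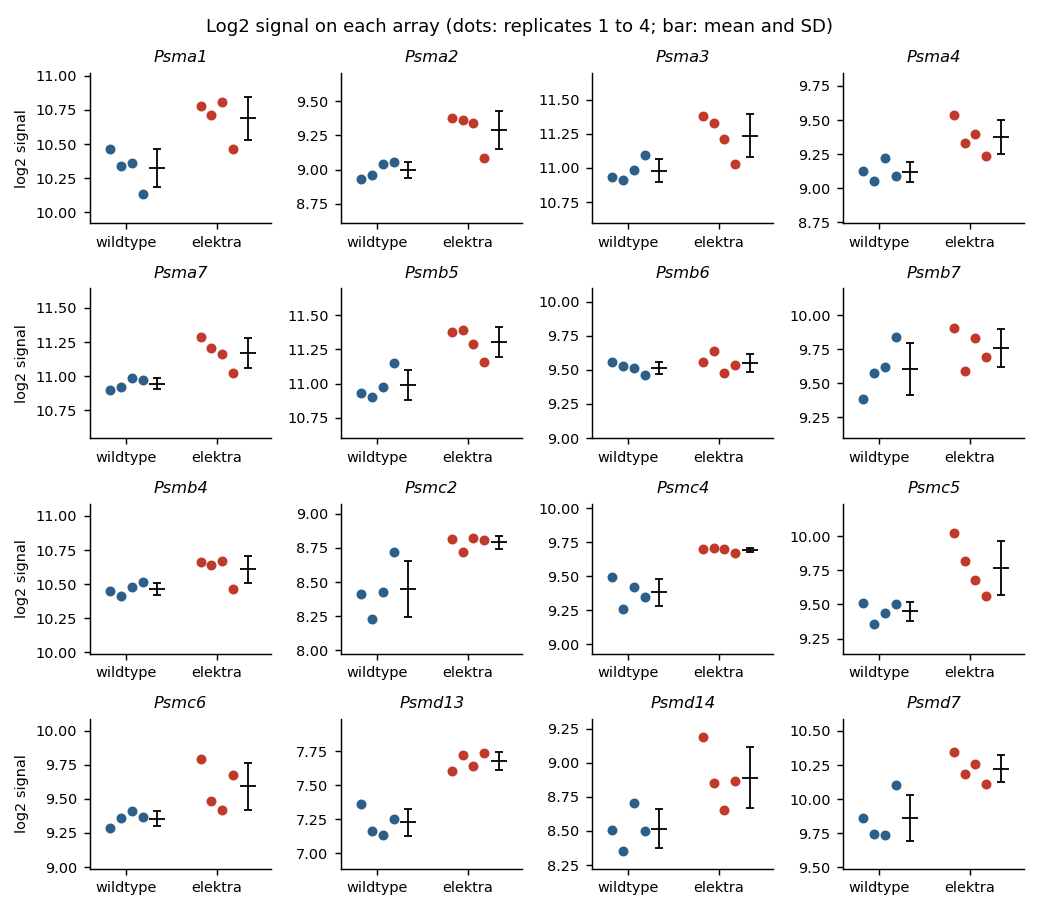
Log2 signal on each of 4 wildtype (blue) and 4 elektra (red) arrays for the 16 genes given by array, with the mean and SD beside each group. All panels span the same number of log2 units, and the genotypes mix for Psmb6 and Psmb7.

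The genes that match by name but are not constitutive subunits had a median nearer to 0. Psmd10 (gankyrin) differed by 0.08, Psmd9 by -0.04 and Psmd5 by -0.16, with a 95% interval of -0.42 to 0.10 for the last. Without wildtype replicate 2, Psmd5 was lower by -0.25 (limma unadjusted p = 0.0489, adjusted p = 0.562). Psma8 differed by 0.07 and Psmc3ip by 0.08. Over the 5 that were tested the median was 0.07 and 0 were called at an unadjusted p of 0.05, while over the 30 constitutive subunits the median was 0.20, with 26 higher by their means and 13 (43.3%) at that p.

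The arrays did not contribute evenly to the 13 genes. Elektra replicate 1 was the highest elektra array for 8 of them and elektra replicate 4, the array of highest mean over the granulocyte markers, the lowest for 9. Wildtype replicate 2 was the lowest wildtype array for 7. It had the smallest interquartile range of all, 2.41, and elektra replicate 1 the largest, 2.67. Relative to the genes' own means, the cell cycle markers were highest on elektra replicate 1, at 0.32, and lowest on wildtype replicate 2, at -0.39. A link between these was not tested. The count was 9 without elektra replicate 1 (against 4.93% of all genes), 9 without wildtype replicate 2 (against 5.42%) and 13 without elektra replicate 4 (against 6.72%). In the reported fit that share of all genes was 7.02%. The pooled SD within genotypes ran from 0.04 to 0.24 over the 35 genes, with a median of 0.12. The authors' deposited table, from their own test, gives an unadjusted p under 0.05 for 16 of the 36 genes, all higher in elektra. They are these 13 with Psma6, Psmb4 and Psmc1. The share of all genes under 0.05 by that test was not computed, so this count has no background to be read against.

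Proteasome genes are known to be controlled together, through the antioxidant-type response element that Nfe2l1 (the proteasome recovery factor) and Nfe2l2 bind, and through elements common in housekeeping promoters. RefSeq promoter windows of assembly GRCm38.p6, from 250 bases before to 50 after a start, were at hand for 29 of the 36 genes. Motifs were searched on both strands by their letters alone. GCGC and TGCGC with any 1 base between them, the core of the nuclear respiratory factor element, occurred in the windows of 6 of the 28 of these genes that were tested (21.4%), against 4.60% of 32851 windows in the table and 10.6% of 10174 genes tested with a window. These 6 genes were Psma2, Psma3, Psma4, Psmc4, Psmc5 and Psmd14, and all 6 were among the 13 genes higher at an unadjusted p of 0.05, whereas 6 of the 22 tested members without it were. Their median difference was 0.30, against 0.14 in the 22. Over all genes tested with a window, 9.93% of those with the motif and 7.31% of those without were higher at that p. Their stretches are shown because all 6 genes with this motif are among the 13. They are written in the direction of the gene, with the motif in capitals, and it begins at positions from -169 in Psmc4 to -49 in Psmc5, counted from the start. In Psma3, Psma4 and Psmc4 the match lies on the opposite strand, so the capitals show the reverse complement of the motif.
Psma2, chr13:14613090-14613149, plus strand: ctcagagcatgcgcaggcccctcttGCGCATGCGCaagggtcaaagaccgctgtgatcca
Psma3, chr12:70974520-70974579, plus strand: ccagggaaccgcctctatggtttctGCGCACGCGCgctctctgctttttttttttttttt
Psma4, chr9:54950773-54950832, plus strand: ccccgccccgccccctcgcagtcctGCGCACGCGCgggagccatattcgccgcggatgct
Psmc4, chr7:28050227-28050286, minus strand: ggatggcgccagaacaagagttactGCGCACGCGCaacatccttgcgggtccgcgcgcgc
Psmc5, chr11:106256111-106256170, plus strand: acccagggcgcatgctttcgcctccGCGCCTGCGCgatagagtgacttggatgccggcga
Psmd14, chr2:61711589-61711648, plus strand: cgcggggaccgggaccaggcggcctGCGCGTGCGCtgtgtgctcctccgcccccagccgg

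TGACNNNGC, the core of the antioxidant response element, occurred in the windows of 5 tested members (17.9%, against 12.4% of all windows and 16.8% of genes tested with a window), Psmb5, Psmb6, Psmc6, Psmd9 and Psmd12. Of these, 2 were higher at an unadjusted p of 0.05, and their median difference was 0.08, against 0.22 in the 23 tested members without it. Over all genes tested with a window, 8.31% with this motif and 7.44% without were higher at that p. The catalytic genes Psmb5 and Psmb6 both held it close to the start, at positions -47 and -9, and differed by 0.32 and 0.04. They are shown so that this pair can be compared, with the motif in capitals.
Psmb5, chr14:54618009-54618067, minus strand: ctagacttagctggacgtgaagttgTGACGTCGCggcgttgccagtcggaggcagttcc
Psmb6, chr11:70525323-70525381, plus strand: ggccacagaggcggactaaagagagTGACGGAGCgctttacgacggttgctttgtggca

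CCGGAAG, 1 form of the site that ETS factors bind, occurred in 11 tested members (39.3%, against 8.86% of all windows and 18.8% of genes tested with a window). Other forms of that site were not searched. Of the 11 with CCGGAAG, 3 were higher at an unadjusted p of 0.05, against 9 of the 17 without it. Over all genes the shares higher were 8.91% with it and 7.28% without. CCAAT occurred in 12 (42.9%, against 37.4% of all windows and 41.8% of genes tested with a window), 6 of them higher, against 6 of 16 without it, and over all genes the shares higher were 7.77% and 7.46%. CCAAT and CCGGAAG shared 1 base in the windows of Psmc2 and Psma6. The window of Psmd13, the gene of largest difference, held CCGGAAG once, at position -6, and is given whole with that motif in capitals.
Psmd13, chr7:140882144-140882443, plus strand: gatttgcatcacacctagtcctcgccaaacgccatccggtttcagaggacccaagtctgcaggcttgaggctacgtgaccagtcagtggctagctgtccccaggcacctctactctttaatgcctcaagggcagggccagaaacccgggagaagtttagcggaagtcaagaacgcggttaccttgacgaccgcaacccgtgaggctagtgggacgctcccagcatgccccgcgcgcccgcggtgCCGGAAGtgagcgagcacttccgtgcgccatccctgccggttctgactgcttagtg

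Genes that work with the proteasome are given by list, and no difference between lists was tested. Of all genes tested, 7.02% were higher at an unadjusted p of 0.05. The genotypes did not overlap for 3.90% of all genes that were higher and 2.37% that were lower. A single call in a list this short cannot be told apart from these shares. Of the 3 immunoproteasome genes, which replace catalytic beta subunits in immune cells, Psmb8, the counterpart of Psmb5, differed by 0.21, and Psmb9 and Psmb10 by 0.04 each, with 0 called at an unadjusted p of 0.05. Among 5 caps and regulators 1 was called as higher, Psme3, the nuclear activator subunit PA28 gamma. It read 8.72, 8.78, 8.91 and 8.52 in elektra and 8.49, 8.15, 8.39 and 8.39 in wildtype, a difference of 0.38 without overlap (limma adjusted p = 0.315). Psmf1, which encodes a proteasome inhibitor, was lower on every elektra array than on any wildtype array, yet by -0.14 only (95% interval -0.32 to 0.05). The interferon-responsive activator genes Psme1 and Psme2 differed by 0.01 and 0.04, and Psme4 by 0.16.

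Of 5 genes for assembly of the core, Psmg1 at 0.19, Psmg2 at 0.28, Pomp at 0.12, Psmg3 at 0.07 and Psmg4 at 0.02, 0 were called at an unadjusted p of 0.05. Of 7 further subunits and partners of the regulatory particle, 1 was called as higher (against 7.02% of all genes tested). Usp14, a ubiquitin protease that docks on the base, read 8.39, 8.20, 8.40 and 7.98 in elektra and 8.02, 7.78, 7.60 and 7.50 in wildtype, and its difference of 0.52 was larger than that of any subunit (standard error 0.14, limma adjusted p = 0.273). Elektra replicate 4 lay just below wildtype replicate 1. Uchl5, the other ubiquitin protease of the base, differed by 0.17, and the ubiquitin receptor gene Adrm1 by 0.08.

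Of the 5 genes known to control proteasome transcription, 0 were called at an unadjusted p of 0.05. Nfe2l1 differed by 0.05 (95% interval -0.14 to 0.24), Nfe2l2 by 0.07, Ddi2, the protease that activates Nfe2l1, by 0.07, Nfe2l3 by -0.09 and Ngly1 by -0.11. Of 4 genes for ubiquitin and its activation reported here, 0 were called at an unadjusted p of 0.05, and Ubb and Rps27a were at -0.01, Uba1 at 0.06 and Uba6 at 0.13. Of 7 shuttle and unfoldase genes reported here 1 was called as higher, at an unadjusted p of 0.05 (against 7.02% of all genes tested). Vcp, the ATPase that extracts ubiquitinated proteins for degradation, read 10.43, 10.22, 10.11 and 9.90 in elektra and 9.93, 9.62, 9.99 and 9.82 in wildtype, a difference of 0.32 with overlap (limma adjusted p = 0.403). Its cofactor gene Ufd1l (Ufd1) differed by 0.29, and Rad23b, which carries ubiquitinated proteins to the base, by -0.05.

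**Figure D5:**
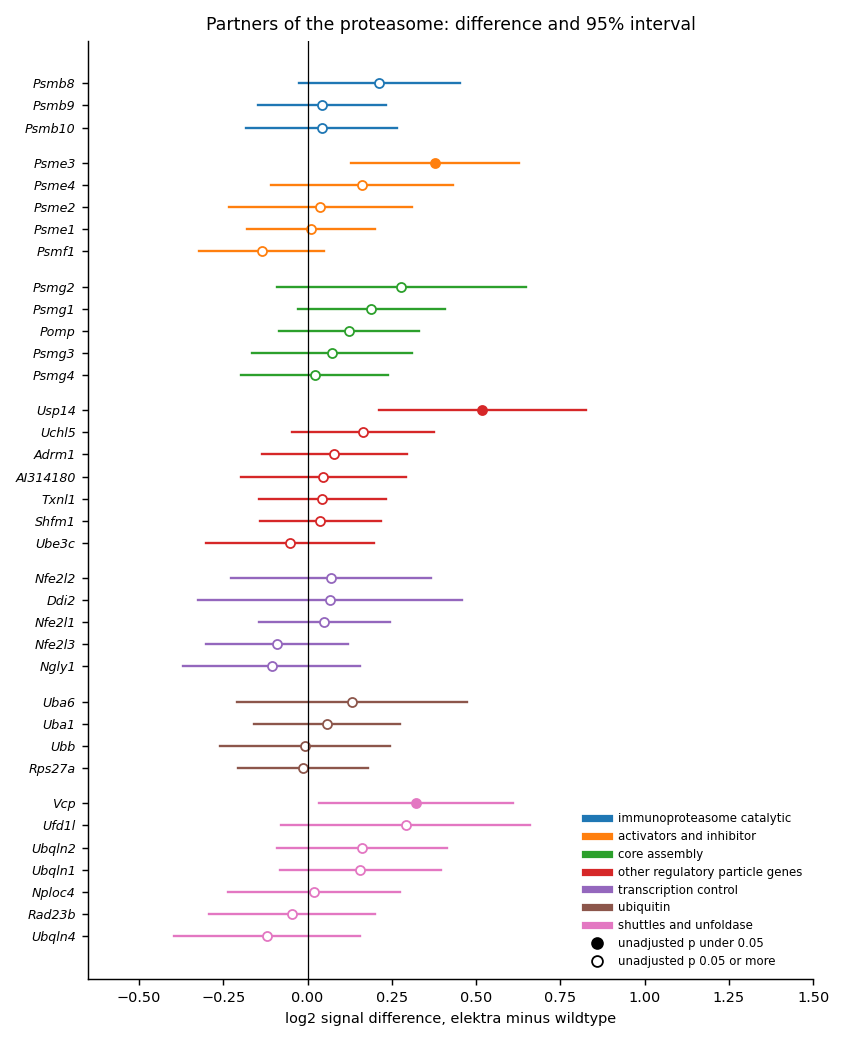
Difference in log2 signal, elektra minus wildtype, with 95% intervals from limma (4 and 4 arrays) for 36 genes that work with the proteasome, by list. Filled points mark an unadjusted p under 0.05, namely Psme3 at 0.38, Usp14 at 0.52 and Vcp at 0.32.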

How the data were processed

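Hematopoietic stem cells were profiled on 8 arrays, 4 per genotype, each from about 200 pg of total RNA amplified with 12 cycles of PCR, per the labels' protocols. The authors' log2 signals come from RMA in Affymetrix Expression Console 1.4, per the submitters' processing notes. The deposited workbook also holds the authors' log2 ratio, their linear fold change as a signed score and their unadjusted p-value. The sources used here give neither array design nor annotation release.

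Features with 1 symbol and a mean at or above 6.17, the median of feature means, were tested, the feature of highest mean for each symbol, which left 15710 genes. limma 3.58.1 in R 4.3.3 (lmFit and eBayes, two-sided, no covariates) was fitted to all of them, with Benjamini-Hochberg adjustment, and the procedure was tested on simulated data. Subcomplexes and partner lists are described by counts and medians, without a test. Genes given by array were Psmb5, Psmb6, Psmb7, members at an unadjusted p of 0.05 and the 3 of largest difference in each of Psma, Psmb, Psmc and Psmd. Members and lists were chosen with earlier results of these data known. Partner genes named are up to 4 of smallest p in each list, and the others are named for completeness after their values were seen, as are the markers. Some genes of the partner lists are not reported here. Symbols are those of the workbook. Arrays carry no read depth, and their number limits the precision. Over the proteasome genes the median standard error was 0.10. P-values measure the spread between pooled samples of mice, taken as independent. If the design text's count of 4 mice for a genotype holds, arrays may share mice, and the p-values would then be too small. Alternatives were other level filters, quantile normalization, centring on array medians, array weights, a trended robust eBayes, averaged features for each gene, the series value table, replicate number as a block, array spread as a covariate and leaving out arrays. Chosen after the values were seen was the restriction to constitutive subunits.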

Additional observations from a re-analysis of the deposited data

Results flagged for a closer look

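In 8 of 78 groups of 4 arrays (1 gene in 1 genotype), 1 array stood far from the other 3. Its gap to the nearest neighbour was above Dixon's critical share of the group's range. Chance alone gives about 1 in 20 groups where groups are independent. Here the genes share the same 8 arrays, so 8 of 78 cannot be read as an excess over that rate. Elektra replicate 4 was the low array for Psma2 (gap 0.866 of the range) and Psmb4 (0.868) and the high array for Psmd3 (0.858). Elektra replicate 3 was low for Psmd2 (0.889) and Psmd4 (0.962), at 8.05 against 8.32 or more on the other elektra arrays for the latter. Elektra replicate 2 was low for Psmc2 (0.882) and high for Psmd9 (0.910). Wildtype replicate 1 was low for Psmb3 (0.897), at 6.68 against 7.24 or more on the other wildtype arrays.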

How the results depend on the processing

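The number of proteasome genes past the adjusted threshold in limma was 0 under all 20 alternatives, with 13 at an unadjusted p of 0.05 in the reported fit. The number higher at that p ran from 9 to 14 when single arrays were left out, and the share of all genes from 4.93% to 8.64%. The number was 11 without both arrays of low Xist (against 6.10% of all genes) and 9 after quantile normalization (against 5.40%). With replicate number as a block it was 10 (against 7.54%), and with array spread as a covariate 7 (against 4.52%). Deviations from the genotype means correlated at 0.14, 0.02, 0.13 and -0.0017 between same-numbered arrays 1 to 4. Elektra replicates 1 and 2 correlated best with the wildtype array of the same number. Elektra replicate 3 correlated best with wildtype replicate 2, by a narrow margin (0.139), and elektra replicate 4 with wildtype replicate 1 (0.133). The labels do not state pairs, so the numbers were not taken to pair samples. With array spread as a covariate the median difference of regulatory particle genes was 0.080, while that of core genes was 0.18. The number lower at that p ran from 0 to 1 when single arrays were left out, the 1 being Psmb3 without wildtype replicate 1 and Psmd5 without wildtype replicate 2. Over all 20 alternatives the core median stayed between 0.10 and 0.20, the regulatory particle median between 0.08 and 0.22, core minus regulatory particle between -0.05 and 0.06, and 26 to 33 proteasome genes had a higher mean in elektra. The highest value of that range, and a median over all genes of 0.06 rather than 0.01, came from centring arrays on their medians. The share of higher genes among all genes at an unadjusted p of 0.05 was 64.0%, 51.6% after quantile normalization, 82.0% with centred arrays, 73.4% with the stricter level filter and 46.1% without a filter. Of 303 values of single genes given by array, 302 kept their direction and did not pass the adjusted threshold, and Psmb6 turned to -0.018 after quantile normalization. Psma1, Psma2, Psmb5, Psmc2, Psmc4, Psmd7 and Psmd13 stayed at an unadjusted p under 0.05 in every setting in which they were tested, and Psma3 and Psmc6 did so in 11 of 20. Psmd13 lay below the stricter level filter. The cause of these changes was not tested.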
